A study of Mus musculus with 6 samples.

Results

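*Itpr1*, *Itpr2*, *Itpr3*, *Ryr1*, *Ryr2*, *Ryr3*, *Car8*, *Inpp5a* and *Itpka* encode the IP3 receptors, the ryanodine receptors and 3 regulators of IP3 signalling. These 9 genes were taken by symbol from the 32286 genes counted in single nuclei of mouse cerebellum, and their unique molecular identifiers (UMIs) were summed per mouse and annotated cell type. SCA1 mice carried *Pcp2-ATXN1[82Q]*, a human *ATXN1* transgene with an expanded CAG repeat, on a C57BL/6 background, and the controls were sex-matched wild-type (WT) littermates labelled C57Bl6. All mice were 12 weeks old, each genotype had 3 mice, and each whole cerebellum gave 1 library. The *Pcp2* promoter drives the transgene in Purkinje cells (PCs), so the other cell types of an SCA1 mouse are not meant to express it, and CAG tracts of such mice are known to shorten over generations.

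IP3 receptors and ryanodine receptors are the channels through which calcium leaves the endoplasmic reticulum. IP3 receptors open when phospholipase C makes IP3, for instance below the metabotropic glutamate receptor mGluR1 in the dendrites of PCs, whereas ryanodine receptors open on a rise of calcium itself. *Itpr1* is the IP3 receptor for which PCs are known, and loss of function of *Itpr1* or of *Car8* causes ataxia in mice. *Car8* encodes a carbonic anhydrase related protein that binds the *Itpr1* receptor and lowers its affinity for IP3, *Inpp5a* a phosphatase that removes a phosphate from IP3, and *Itpka* a kinase that turns IP3 into IP4.

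The libraries held 3354 to 10897 nuclei and 18916647 to 98366627 UMIs. WT mouse 2 was the shallowest, with a median of 2246.5 UMIs per nucleus and 4784 nuclei under 3000 UMIs, whereas the highest median was 7253. Any pair of libraries shared between 7 and 44 barcodes. Of 24 SingleR labels, 11 had at least 20 nuclei in every mouse and were tested. PCs were the rarest of the types the study was about, with 292 nuclei and 29 to 76 per mouse, against 1243 Bergmann glia (BG), 1014 velate astrocytes (VA), 1384 oligodendrocytes (OL) and 37532 granule neurons. The other 6 were 1224 Pvalb-Nefh, 458 Pvalb-Rab3b, 263 Pvalb-Chrm2 and 289 Pvalb-Cadm1 interneurons, 757 Slc17a6-Nrgn neurons and 242 Dcn-Nnat cells, named here by the marker genes in their labels. Human *ATXN1* gave 12, 15 and 19 UMIs in the PCs of the SCA1 mice and 0 in those of the 3 WT mice. In granule neurons it gave 36 to 39 UMIs in SCA1 mice and 14 to 28 in WT mice, so that reads were assigned to it in both genotypes there.

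The labels were checked against marker genes. *Skor2*, a transcriptional corepressor of PCs, had a mean of 86.9 counts per 1000000 UMIs (CPM) in PCs and at most 0.46 CPM elsewhere. *Gabra6*, a GABA-A receptor subunit of granule neurons, had 741 CPM in granule neurons and 31.4 CPM in PCs. *Gdf10* marked BG with 120 CPM, *Aqp4* VA with 1151 CPM against 219 CPM in BG, and *Mog* OL with 731 CPM. Dcn-Nnat cells had 373 CPM of the fibroblast gene *Dcn* and 346 CPM of *Col1a2*, the other listed fibroblast marker. They also had 559 CPM of the BG marker *Slc1a3*, 110 CPM of the oligodendrocyte precursor marker *Pdgfra* and 95.1 CPM of the endothelial marker *Flt1*. The other listed markers of these 3 types were low there. They were *Gdf10* (16.0 CPM), *Hopx* (31.6 CPM) and *Timp4* (30.1 CPM) of BG and *Cspg4* (7.45 CPM) and *Vcan* (6.40 CPM) of precursors. The endothelial *Cldn5* had 1.88 CPM and *Pecam1* 2.28 CPM. Whether this label held several cell types was not tested. The listed interneuron markers *Ptprk* (889 CPM), *Nxph1* (301 CPM), *Sorcs3* (150 CPM) and *Lypd6* (39.0 CPM) were counted in OL as well. *Gad1*, the other one, had 57.7 CPM in OL and 56.7 CPM in granule neurons. Whether the OL label held interneurons was not tested. The oligodendrocyte precursor markers *Vcan* (191 CPM), *Pdgfra* (69.4 CPM) and *Cspg4* (32.5 CPM) were counted in OL too. RNAs of abundant PC genes were also counted in the nuclei of every other type. *Pcp2* had 604 CPM in PCs, 219 CPM in granule neurons and 177 CPM in BG, and was lowest in Slc17a6-Nrgn neurons at 73.5 CPM. Marker values are therefore given beside the members outside PCs.

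Among the 11 cell types tested, 5 of the 9 members had their highest level in PCs, namely *Itpr1*, *Car8*, *Inpp5a*, *Ryr1* and *Itpka*. *Ryr2* was highest in Pvalb-Chrm2 interneurons and *Ryr3* in Slc17a6-Nrgn neurons, *Itpr2* in glia and Dcn-Nnat cells, and *Itpr3* was low throughout. Levels are CPM scaled by TMM, an edgeR factor that evens out library composition, with the mean ± SD over the 6 mice (n = 6) unless said otherwise. The order of cell types was tested by comparing neighbours in the order of their means within the same mice, with a two-sided exact sign-flip permutation test. Over 90 pairs of neighbours, the smallest p that 6 mice allow was 0.03125, and its adjusted value of 0.216 meant that no pair could pass a threshold of 0.05.

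**Figure D1:**
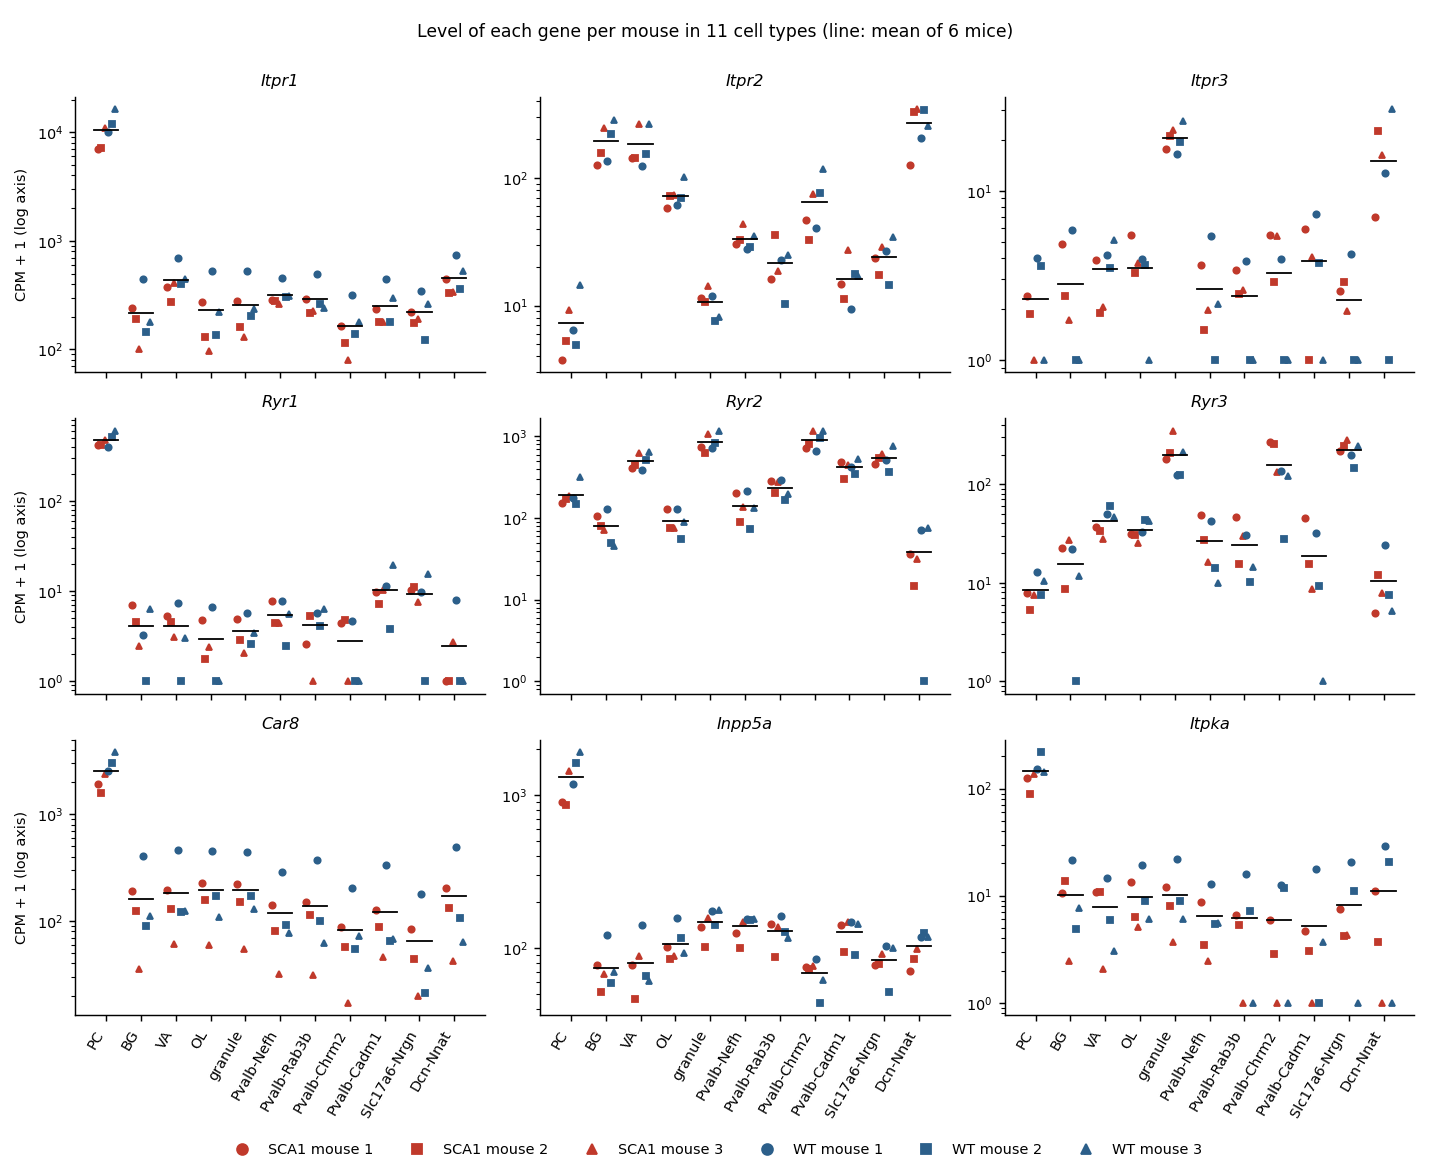
Level of each of the 9 genes (TMM-scaled CPM + 1, log axis) in the 11 tested cell types, with 1 point per mouse coloured by genotype and a line at the mean of the 6 mice. PCs stand above every other type for *Itpr1*, *Car8*, *Inpp5a*, *Ryr1* and *Itpka*, and are at the low end for *Itpr2* and *Ryr3*.

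*Itpr1* (ENSMUSG00000030102, chr6:108213096-108551109 of GRCm38, forward strand) was the most abundant member. Its 3 WT mice had 10070, 11889 and 16324 CPM in PCs, and the 3 SCA1 mice 7042, 7141 and 10858 CPM. Dcn-Nnat cells came next with 454 ± 156 CPM, then VA with 433 ± 142 CPM. Further down, where not every type is given, granule neurons had 256 ± 143 CPM and BG 216 ± 121 CPM. PCs exceeded Dcn-Nnat cells in 6 of 6 mice by a mean of 4.54 on the log2 scale (exact p = 0.03125, adjusted 0.216), whereas no other neighbours in the order differed in all 6 mice. A UMI of *Itpr1* was found in 99.7% of PC nuclei, and in 98.2% after each nucleus was thinned to 3000 UMIs. In granule neurons the share was 64.1%, and 48.3% after thinning, which is close to the 43.9% of granule nuclei in which *Pcp2* was seen at that depth. The median depth of PC nuclei was 36466.5 UMIs against 5923 UMIs in granule neurons, and 12 PC and 5721 granule nuclei were too shallow to be thinned.

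*Itpr2* (chr6:146108299-146502223, reverse strand), the IP3 receptor that carries most calcium release in astrocytes, had the opposite distribution. It stood at 266 ± 88.1 CPM in Dcn-Nnat cells, 193 ± 65.2 CPM in BG and 182 ± 64.8 CPM in VA, and the SDs of these 3 neighbours overlapped. Dcn-Nnat cells lay above BG in 5 of 6 mice by a mean of 0.45 on the log2 scale, and BG above VA in 4 of 6 mice. OL followed with 71.8 ± 15.7 CPM, below VA in 6 of 6 mice by a mean of 1.28 on the log2 scale (exact p = 0.03125). Granule neurons with 9.67 ± 2.48 CPM and PCs with 6.34 ± 3.98 CPM were lowest. Per length, *Itpr2* had a level of 0.0193 CPM per kb of gene span in PCs of WT mice, against 37.8 CPM per kb for *Itpr1*. Of the labels with too few nuclei for a test, microglia had 323 CPM of *Itpr2* (200 UMIs) and 12 polydendrocyte nuclei 1608 CPM (350 UMIs). Both values are pooled over the 6 mice, and WT mouse 2 had no polydendrocyte nuclei.

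*Itpr3* (chr17:27057304-27122223, forward strand), the IP3 receptor best known from secretory epithelia and taste cells, had 19.5 ± 3.44 CPM in granule neurons and 14.02 ± 10.6 CPM in Dcn-Nnat cells. The first was higher in only 4 of 6 mice (exact p = 0.125). Elsewhere its mean was at most 2.84 CPM, and PCs held 17 UMIs of it in all. Endothelial nuclei labelled Flt1-Lrg1 had 40.4 CPM pooled over the mice, from 37 UMIs.

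Among the ryanodine receptors, *Ryr1* (chr7:29003344-29125179, reverse strand), the isoform of skeletal muscle, was a gene of PCs. PCs had 469 ± 77.7 CPM, and Pvalb-Cadm1 interneurons, next in order, 9.32 ± 5.33 CPM. The difference held in 6 of 6 mice with a mean of 5.66 on the log2 scale (exact p = 0.03125). Granule neurons had 2.61 ± 1.45 CPM. In CPM this was only 0.223 to 1.21% of the PC level of the same mouse, against 14.5 to 55.7% for *Pcp2* and 0.286 to 0.752% for *Skor2*. In granule neurons *Ryr1* was thus close to *Skor2*, not to *Pcp2*, in its share of the PC level, and other types were not compared in this way.

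*Ryr2* (chr13:11553102-12106945, reverse strand), the isoform of the heart and the common one of the brain, was counted in neurons and astrocytes. Pvalb-Chrm2 interneurons had 915 ± 219 CPM and granule neurons 859 ± 216 CPM, and their order changed between mice, with the interneurons higher in 3 of 6 (exact p = 0.25). Slc17a6-Nrgn neurons with 542 ± 136 CPM lay below granule neurons in 6 of 6 mice (mean log2 difference 0.66, exact p = 0.03125), and VA had 503 ± 108 CPM. PCs were seventh with 192 ± 62.8 CPM, and BG, the other astrocytes, had 79.4 CPM. VA thus had 58.6% of the granule level of *Ryr2* and BG 9.24%, where 4 granule neuron markers (*Gabra6*, *Cbln3*, *Etv1* and *Fat2*) summed to 22.0% of their granule level in VA and 18.0% in BG.

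*Ryr3* (chr2:112631355-113217096, reverse strand), found in brain and some smooth muscles, reached 222 ± 47.2 CPM in Slc17a6-Nrgn neurons, 198 ± 82.9 CPM in granule neurons and 155 ± 89.9 CPM in Pvalb-Chrm2 interneurons. The SDs of these neighbours overlapped. Slc17a6-Nrgn neurons lay above granule neurons in 5 of 6 mice, and granule neurons above Pvalb-Chrm2 interneurons in 3 of 6 by a mean of 0.56 on the log2 scale. VA with 41.4 ± 12.0 CPM and OL with 33.2 ± 7.19 CPM followed, and PCs were last with 7.53 ± 2.61 CPM. Slc17a6-Sln neurons, which were too few to be tested, had 404 CPM of *Ryr3* and 1147 CPM of *Ryr2*. *Aven* lies on the opposite strand within *Ryr3*, *Itpr3os* within *Itpr3* and *Nkx6-2* within *Inpp5a*. The study made Chromium 3′ libraries and counted them with CellRanger, and how reads of these pairs were assigned was not checked here.

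The 3 regulators were also highest in PCs. *Car8* (chr4:8143362-8239041, reverse strand) had 2546 ± 801 CPM in PCs, above OL with 194 ± 136 CPM in 6 of 6 mice (mean log2 difference 3.92, exact p = 0.03125). Granule neurons (194 ± 133 CPM) and VA (181 CPM) followed, with differences smaller than the spread over mice. *Inpp5a* (chr7:139389109-139579652, forward strand) had 1317 ± 410 CPM in PCs and 147 ± 28.4 CPM in granule neurons, a mean log2 difference of 3.12 with the same direction in 6 of 6 mice. *Itpka* (chr2:119742337-119751263, forward strand), well known from dendritic spines of forebrain neurons, had 144 ± 42.5 CPM in PCs and 4.19 to 10.1 CPM in the 10 other types. *Car8* was seen in 96.6% of thinned PC nuclei and *Inpp5a* in 88.4%, whereas *Itpka* was seen in 31.6%.

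A direct test of PCs against granule neurons of the 3 WT mice, with mouse as a term in edgeR's quasi-likelihood test, called 8 of the 9 members (threshold 0.05 on the adjusted p). In this comparison 40.2% of the 15575 genes tested were called, so a call by itself says little. *Ryr1* was higher in PCs by 7.82 on the log2 scale (adjusted p = 2.55e-06, SE 0.44), *Itpr1* by 5.81 (SE 0.42, adjusted p = 9.32e-06), *Itpka* by 4.46, *Car8* by 4.25 and *Inpp5a* by 3.62. *Ryr3* was lower in PCs with a log2 difference of -3.51 (SE 0.25, adjusted p = 7.75e-06), as were *Itpr3* with -2.65 and *Ryr2* with -1.74. The difference for *Itpr2* was 0.11 (SE 0.48, adjusted p = 0.878).

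Levels were also divided by gene span, because introns were counted. The libraries captured transcript ends, and how UMIs depend on span was not tested, so this gives no order of abundance. Within PCs of WT mice *Itpr1* had 37.8 CPM per kb, *Car8* 32.8, *Itpka* 19.2, *Inpp5a* 8.23 and *Ryr1* 4.12. *Ryr2* had 0.386 CPM per kb, and *Itpr3*, *Itpr2* and *Ryr3* between 0.0157 and 0.0287. *Itpka*, the shortest gene with a span of 8.927 kb, thus moved up from a low CPM. In granule neurons *Ryr2* had 1.63 CPM per kb. *Car8* with 2.58, *Itpka* with 1.27 and *Itpr1* with 0.953 CPM per kb were counted there beside PC RNAs such as *Pcp2* (219 CPM), and no order is read from them.

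For each member the 3 genes with the most similar profile over the 11 cell types were taken, by Pearson's r of log2(mean CPM + 1) among 13493 genes. The cell types share libraries and the background of PC RNA, so r is given as a description over 11 points. *Car8* was nearest to *Icmt* (r = 0.989), to *Calb1* (r = 0.988), a calcium buffer of PCs, and to *Atp2a3* (r = 0.987), a calcium pump of the endoplasmic reticulum. *Inpp5a* was nearest to *Rgs8* (r = 0.977), *Itpr1* to *Pkp3* (r = 0.988), *Ryr1* to *Cfap161* (r = 0.987) and *Itpka* to *Gm28653* (r = 0.991). For *Ryr3* the nearest genes were *Syt1* (r = 0.974), *Fstl5* (r = 0.959) and *Pcsk2* (r = 0.955), for *Ryr2* *Tsr3* (r = 0.935), for *Itpr2* *Pdlim5* (r = 0.977) and for *Itpr3* *Fut8* (r = 0.969). Within the set, *Itpr1* had r = 0.946 with *Car8*, 0.946 with *Itpka*, 0.937 with *Inpp5a* and 0.905 with *Ryr1*, *Ryr2* had r = 0.760 with *Ryr3*, and *Itpr1* had r = -0.377 with *Itpr2*.

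The comparison of SCA1 with WT asked how these genes stand in PCs that express the transgene. No member was called in PCs, and neither was any other of the 10517 genes tested there (0% called), with edgeR on sums per mouse and with batch and genotype as terms. At an unadjusted p under 0.05 edgeR had 720 genes, and DESeq2 called 134 genes (1.27%) at its adjusted threshold, none of them a member. With a replicate block in place of batch, edgeR called 184 genes (1.75%), among them *Itpr1* (adjusted p = 0.0246) and *Car8* (adjusted p = 0.0273). Same-numbered mice deviated together with a correlation above 0.1 for every pair in VA and granule neurons but not in PCs, so the pairing that this block assumes is uncertain. All 8 members that passed the filter on low counts nevertheless had a negative log2 fold change, with a median of -0.57 against 0.02 over all genes tested. *Itpr3*, with 17 UMIs, did not pass the filter.

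*Car8* had 1903, 1594 and 2380 CPM in PCs of the SCA1 mice and 2551, 3027 and 3823 CPM in those of the WT mice, so that the groups did not overlap. Its log2 fold change was -0.66 (SE 0.28, edgeR unadjusted p = 0.0394, adjusted p = 0.679). *Itpka* had 125, 88.9 and 137 CPM against 153, 218 and 143 CPM, again without overlap, and its log2 fold change was -0.53 (edgeR adjusted p = 0.757, SE 0.25). With library size alone as the scale the groups of *Itpka* overlapped, while those of *Car8* did not. These 2 of the 8 members lay below WT in all SCA1 mice, compared with 5.11% of all genes tested in PCs, and 0 of 8 lay above in all SCA1 mice, compared with 4.96%. The members were chosen with earlier results of these data known, so their shares are not an independent result. The log2 fold change of *Car8* kept its sign under all 16 alternatives run, between -0.79 and -0.48. The count of members below was 1 with library size alone (2.6% of all genes), 4 without SCA1 mouse 3 (10.5%) and 5 without WT mouse 1 (10.3%).

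*Itpr1* overlapped between the genotypes, because SCA1 mouse 3 with 10858 CPM lay above WT mouse 1 with 10070 CPM. The mean was 8347 ± 2176 CPM in SCA1 and 12761 ± 3217 CPM in WT (SD, n = 3 each), and the log2 fold change -0.60 (SE 0.36, adjusted p = 0.906). *Inpp5a* overlapped in the same way, with 905, 864 and 1433 CPM in SCA1 and 1185, 1609 and 1908 CPM in WT, and its log2 fold change was -0.54 (edgeR adjusted p = 0.796, SE 0.26). In both genes the third mouse was the highest of its genotype. Each SCA1 mouse lay below the WT mouse of its number, but that pairing is uncertain in PCs.

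**Figure D2:**
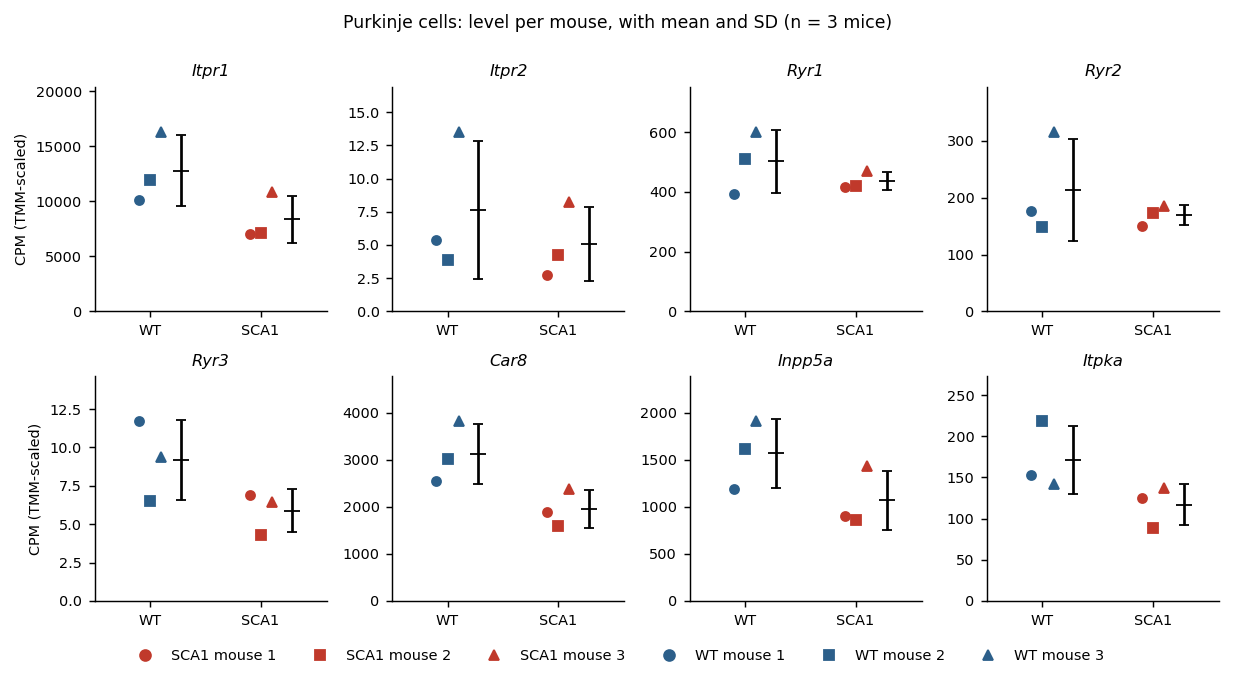
Level in PCs (TMM-scaled CPM) of 8 of the 9 genes in each mouse, by genotype, with the mean and SD of the 3 mice. The SCA1 mice lie below all WT mice for *Car8* and *Itpka*, while *Itpr1* and *Inpp5a* overlap through the third SCA1 mouse.

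The ryanodine receptors differed less from WT or were too rare to tell. *Ryr1* had 417, 419 and 471 CPM in SCA1 and 393, 510 and 601 CPM in WT, a log2 fold change of -0.18 (SE 0.21) that became 0.01 with library size alone. *Ryr2* had 150, 173 and 186 CPM against 176, 149 and 316 CPM (log2 fold change -0.33, SE 0.26), which turned to 0.04 without WT mouse 3, the highest of the 6. *Ryr3* with 4.27 to 6.89 CPM in SCA1 and 6.49 to 11.7 CPM in WT, and *Itpr2* with 2.75 to 8.2 CPM and 3.9 to 13.5 CPM, had log2 fold changes of -0.64 (SE 0.43) and -0.65 (SE 0.56), with the 2 largest errors among the members in PCs.

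Within the batches, the log2 ratio of SCA1 to WT in PCs was -0.52 for *Itpr1* in batch 1, with 1 mouse of each genotype, and -0.65 in batch 2, with 2 of each. For *Car8* the ratios were -0.42 and -0.79, and for *Itpka* -0.29 and -0.67. *Ryr1* had 0.08 and -0.32, so its direction was not shared by the batches. The scale matters in PCs, since library size in place of TMM moved the median of all genes from 0.02 to 0.20 on the log2 scale, and the members are best read against that median.

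The level of PC markers moved in the same direction. The sum of *Pcp2*, *Calb1*, *Ppp1r17*, *Rgs8*, *Skor2* and *Gng13* was 1943 to 2000 CPM in SCA1 PCs and 2426 to 3432 CPM in WT PCs, with all 6 markers lower on average in SCA1 and 3 of them below WT in all SCA1 mice. The log2 ratio of its means, without a batch term, was -0.57. The median of the members was -0.57 as well, but over fold changes fitted with batch, so the measures differ. *Gng13* was no PC marker in these data, with 127 CPM in PCs and 145 CPM in granule neurons, and without it the ratio was -0.54. The part of the markers' difference in the members' values was not tested.

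**Figure D3:**
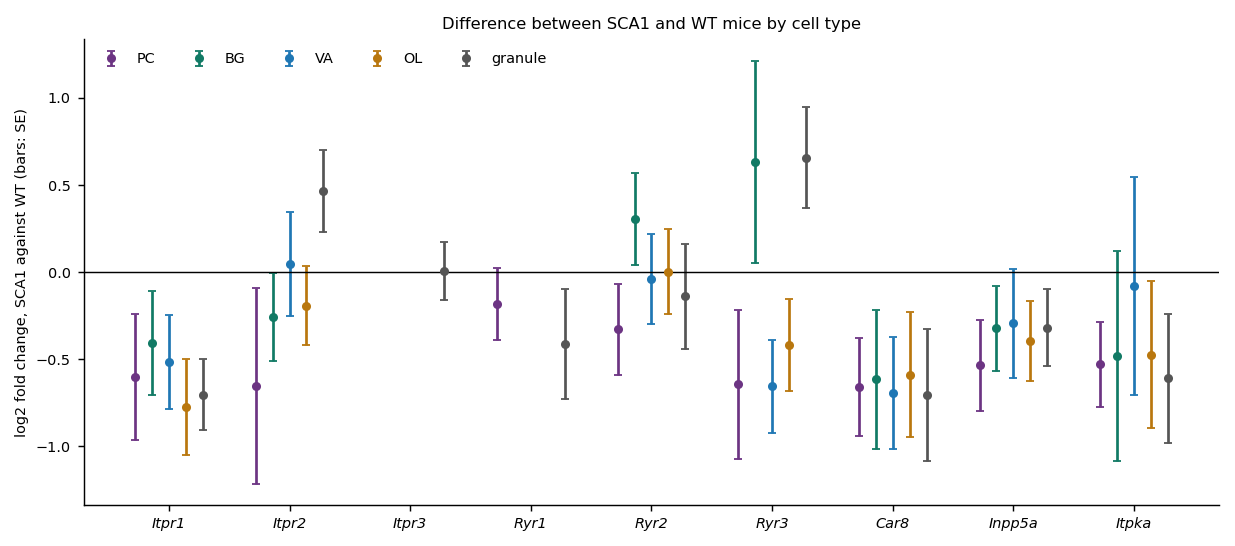
Log2 fold change of SCA1 against WT with its SE for the 9 genes in PCs, BG, VA, OL and granule neurons, where tested. *Itpr1*, *Car8*, *Inpp5a* and *Itpka* lie below 0 in all 5 cell types (*Itpka* in VA only by 0.08 and above 0 with DESeq2), and *Ryr3* lies above 0 in granule neurons and BG and below 0 in PCs, VA and OL. edgeR with batch and genotype as terms called none of them.

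Outside PCs no member was called either, with edgeR. The share of all genes called was 0% in BG and VA, 0.00866% in OL (1 gene) and 0.00547% in granule neurons (1 gene), and 0% in each of the 6 other types. Genes at an unadjusted p under 0.05 numbered 213 (BG), 123 (VA), 98 (OL), 332 (granule neurons) and 125 to 219 (each of the others). DESeq2 called 6 genes in BG (0.0511%), 0 in VA, 1 in OL, 36 in granule neurons (0.197%), and at most 2 in each of the others. With a replicate block in place of batch edgeR called 13 genes in granule neurons (0.0712%), 3 in BG (0.0255%) and 1 each in OL and VA (0.00893% in VA), none a member. The only member that DESeq2 called was *Itpr1* in granule neurons (DESeq2 adjusted p = 0.0329, with a range of 0.0329 to 1.0 over all alternatives run).

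*Car8* and *Itpr1* had negative log2 fold changes in all 11 cell types. For *Car8* they ran from -0.49 in Slc17a6-Nrgn neurons to -1.05 in Pvalb-Chrm2 interneurons, and for *Itpr1* from -0.30 to -0.84 in the same types. *Itpr1* was lower in both batches in each type. *Car8* was not lower in batch 2 in Slc17a6-Nrgn neurons (log2 ratio 0.16), Dcn-Nnat cells (0.03) and Pvalb-Cadm1 interneurons (0.01), where batch 1, with 1 mouse of each genotype, gave -1.10, -1.26 and -1.41. In granule neurons *Car8* had 221, 150 and 53.1 CPM in SCA1 and 442, 169 and 129 CPM in WT (log2 fold change -0.70, SE 0.38), and *Itpr1* 280, 161 and 129 CPM against 527, 202 and 237 CPM (-0.70, SE 0.20, edgeR unadjusted p = 0.0103). The groups overlapped in both genes, with WT mouse 1 by far the highest and SCA1 mouse 3 the lowest. In OL *Itpr1* had 270, 130 and 96.2 CPM against 530, 134 and 221 CPM, with the same 2 mice at the ends (log2 fold change -0.77, SE 0.27).

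The 6 listed PC marker RNAs, *Gng13* included, counted in granule neurons and OL were likewise highest in WT mouse 1 and lowest in SCA1 mouse 3, while the order of the mice between these was not that of *Itpr1*. Their sum in granule neurons was 222 to 731 CPM in SCA1 and 421 to 1422 CPM in WT, with a log2 ratio of the means of -0.72, and in BG 107 to 570 CPM against 231 to 1228 CPM with -0.69. In VA the ratio was -0.87 and in OL -0.81. Without *Gng13*, left out after its values were seen, the ratios were -0.60 for granule neurons, -0.70 for OL, -0.73 for VA and -0.61 for BG. All 6 markers were lower on average in SCA1 granule neurons and BG, and 5 of 6 in VA and OL, while *Skor2* was at or near 0. By batch the ratio in BG was -1.11 and -0.11, where *Car8* had -1.08 and -0.34 and *Itpr1* -0.89 and -0.14. In Dcn-Nnat cells the markers had -1.47 and -0.42, and *Car8* had -1.26 and 0.03. In granule neurons the batches gave -0.96 and -0.45 for the markers, -0.999 and -0.56 for *Car8* and -0.91 and -0.60 for *Itpr1*.

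**Figure D4:**
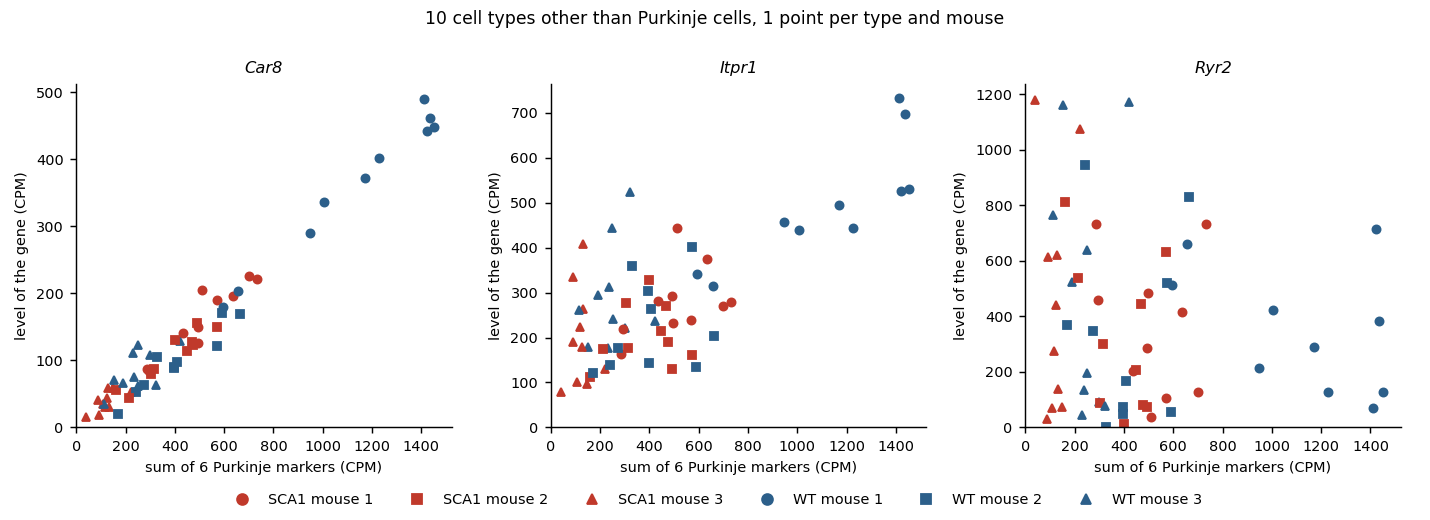
Level of *Car8*, *Itpr1* and *Ryr2* (CPM) against the summed level of 6 PC markers (CPM) in the 10 tested cell types other than PCs, with 1 point per cell type and mouse (60 points). *Car8* is higher where the markers are, over all types, *Itpr1* less evenly, with its highest means in Dcn-Nnat cells and VA, and *Ryr2* has no such order.

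*Car8* was also set against *Pcp2* in the same nuclei. Per 100 UMIs of *Pcp2* there were 65.6 to 118 UMIs of *Car8* in granule neurons, 76.6 to 123 in OL, 59.7 to 160 in BG, 56.6 to 143 in VA, 42.9 to 152 in Slc17a6-Nrgn neurons and 52.6 to 275 in Pvalb-Chrm2 interneurons, against 283 to 1097 in PCs. *Itpr1* was less even, with 70.7 to 242 UMIs per 100 of *Pcp2* in granule neurons and 120 to 941 in VA. It had 154 to 1037 in Dcn-Nnat cells, 184 to 1203 in Slc17a6-Nrgn neurons and 137 to 1350 in Pvalb-Chrm2 interneurons, against 1048 to 4683 in PCs. As a share of the PC level of the same mouse, *Car8* had 2.23 to 17.3% in granule neurons, *Itpka* 1.94 to 13.7% and *Itpr1* 1.19 to 5.24%, whereas *Inpp5a* had 8.73 to 15.0%. Among granule nuclei with no UMI of *Pcp2*, from 219 of 8491 in WT mouse 1 to 4336 of 5799 in SCA1 mouse 3, the log2 fold changes were -0.70 for *Itpr1* and -0.66 for *Car8*, a selection that does not remove background RNA of either gene. How much of the *Car8* and *Itpr1* counted outside PCs was PC RNA was not tested.

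*Ryr3*, which is scarce in PCs, had another pattern. In granule neurons the SCA1 mice had 177, 204 and 348 CPM and the WT mice 123, 124 and 211 CPM, a log2 fold change of 0.66 (SE 0.29, edgeR unadjusted p = 0.0568, adjusted p = 1.0). SCA1 mice 1 and 2 lay above WT mice 1 and 2 but below WT mouse 3, and with library size alone the groups did not overlap. Each SCA1 mouse lay above the WT mouse of its number, and none of the alternatives run called *Ryr3* there. The log2 ratio was 0.53 in batch 1 and 0.72 in batch 2. In the 5 other neuronal types apart from PCs the log2 fold change was also positive, from 0.32 in Slc17a6-Nrgn neurons to 1.13 in Pvalb-Chrm2 interneurons (SE 0.38, unadjusted p = 0.0125). In those interneurons SCA1 mice had 265, 253 and 132 CPM and WT mice 134, 26.7 and 119 CPM. The groups overlapped, and 3 UMIs made 16.0 CPM in WT mouse 2. *Ryr3* was at 12.8% of its granule level in Pvalb-Nefh, 11.8% in Pvalb-Rab3b and 8.95% in Pvalb-Cadm1 interneurons. The 4 granule neuron markers were at 13.8%, 16.4% and 11.9% there, and the part of granule neuron RNA was not tested. In Pvalb-Chrm2 interneurons and Slc17a6-Nrgn neurons *Ryr3* was at 78.2% and 112%, and the markers at 8.41% and 6.99%.

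In VA, by contrast, *Ryr3* was lower in all SCA1 mice, with 35.7, 32.7 and 26.5 CPM against 49.1, 59.3 and 45.1 CPM (log2 fold change -0.65, SE 0.27, unadjusted p = 0.0297). The same held in OL, with 30.0, 29.4 and 24.0 CPM against 32.0, 42.0 and 41.7 CPM (-0.42, SE 0.26, adjusted p = 1.0). The *Ryr3* level was 20.9% of that of granule neurons in VA and 16.8% in OL, and the 4 granule neuron markers stood at 22.0% and 23.0% of theirs. The log2 ratio of SCA1 to WT of the marker sum was -0.14 in VA and -0.09 in OL, with overlapping groups, and how much of the *Ryr3* counted there was granule neuron RNA was not tested. *Ryr3* was the only member of 7 tested whose groups did not overlap in VA and in OL, where 2.52% and 1.65% of all genes lay below WT in all SCA1 mice and 2.14% and 1.84% above. In BG and granule neurons no member was without overlap, against 2.79% of all genes below and 1.93% above in BG and 1.7% and 1.59% in granule neurons. In OL the batches gave -0.09 and -0.65, so the difference came mostly from batch 2, and in BG *Ryr3* had 7.68 to 26.2 CPM in SCA1 and 0 to 21.2 CPM in WT.

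An interaction term asked, over the sums of both types from each mouse, if a member's change in a given type was unlike its change in granule neurons. No member was called in any of the 4 comparisons, of PCs, BG, VA and OL with granule neurons, and 0% of all genes were called in each (201 to 769 genes at an unadjusted p under 0.05, and 0 to 70 genes called by DESeq2, none a member). In 3 of them *Ryr3* had the lowest unadjusted p of the members, with a difference of -1.41 on the log2 scale for PCs (SE 0.38, edgeR adjusted p = 0.681), -1.26 for VA (SE 0.36, adjusted p = 1.0) and -1.01 for OL (SE 0.33, adjusted p = 1.0). When each mouse was left out in turn, the value for PCs ran from -1.81 to -0.82. *Itpr1* with 0.03 (SE 0.55) and *Car8* with 0.05 (SE 0.72) had differences well within their errors, which allow either sign.

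The remaining members outside PCs had small or uncertain differences. *Ryr2* had 732, 632 and 1075 CPM in granule neurons of SCA1 mice and 714, 829 and 1170 CPM in those of WT mice, with SCA1 mouse 3 and WT mouse 3 highest (log2 fold change -0.14, SE 0.30). In VA it had 415, 443 and 619 CPM against 382, 519 and 639 CPM (-0.04, SE 0.26). *Itpr2* had 125, 154 and 243 CPM in BG of SCA1 mice and 133, 218 and 285 CPM in those of WT mice (-0.26, SE 0.25), and 142, 143 and 265 CPM against 123, 153 and 264 CPM in VA (0.05, SE 0.30). In granule neurons, where it was scarce, *Itpr2* had 0.47, positive under all 16 alternatives (0.26 to 0.81). Its log2 ratio there was -0.03 in batch 1 and 0.74 in batch 2. *Inpp5a* in granule neurons had 136, 100.3 and 157 CPM in SCA1 and 174, 140.5 and 177 CPM in WT, with SCA1 mouse 2 lowest (-0.32, SE 0.22), and *Itpka* 2.66 to 11.01 CPM against 5.11 to 20.97 CPM (-0.61, SE 0.37). *Itpr3* there had 16.6, 20.2 and 21.9 CPM against 15.5, 18.5 and 24.7 CPM (0.01, SE 0.17). These groups overlapped throughout. Taken over the members tested, BG and granule neurons both had a median of -0.32, VA of -0.29 and OL of -0.42, where the median of all genes was within 0.01 of 0.

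The transgene was counted at least once in some PC nuclei of each SCA1 mouse (*hATXN1*+ PCs, with 10, 10 and 11 nuclei) and not in the rest (*hATXN1*- PCs, with 55, 42 and 18 nuclei). A nucleus with more UMIs is more likely to show the transgene, and the median depth was 41307 against 37282 UMIs in mouse 1, 34274.5 against 7287.5 in mouse 2 and 58288 against 56243.5 in mouse 3. Of 6 members tested within mice, 1 was called, in a comparison that called 1.33% of 8570 genes. *Itpr1* had 6173, 6881 and 8138 CPM in *hATXN1*+ PCs and 8470, 8117 and 12233 CPM in *hATXN1*- PCs of mice 1 to 3, lower in 3 of 3 mice (plain CPM, log2 fold change -0.57, SE 0.14, edgeR adjusted p = 0.0391).

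*Itpka* with 128, 59.6 and 89.4 CPM against 147, 113 and 163 CPM, and *Inpp5a* with 819, 882 and 1144 CPM against 1084, 960 and 1569 CPM, were also lower in 3 of 3 mice, with log2 fold changes of -0.77 (adjusted p = 0.0602) and -0.47 (adjusted p = 0.148). *Car8* had 1696, 1799 and 1656 CPM against 2284, 1693 and 2766 CPM, lower in 2 of 3 mice (-0.51, adjusted p = 0.160). *Ryr1* and *Ryr2* had -0.38 and -0.47 and were not called. The call of *Itpr1* rests on SCA1 mice 1 and 3. Its edgeR adjusted p was 0.445 without SCA1 mouse 1, when *Itpka* was called instead. Without SCA1 mouse 3 the adjusted p of *Itpr1* was 0.488, and 101 genes were called, none of them a member. Without SCA1 mouse 2, whose *hATXN1*- PCs were shallow, edgeR called 116 genes, among them *Itpr1* (adjusted p = 0.00178) and *Car8* (adjusted p = 0.00664). Over the 5 alternatives run for this split, the adjusted p of *Itpr1* ranged from 1.08e-05 to 0.488 and its log2 fold change from -0.68 to -0.44.

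**Figure D5:**
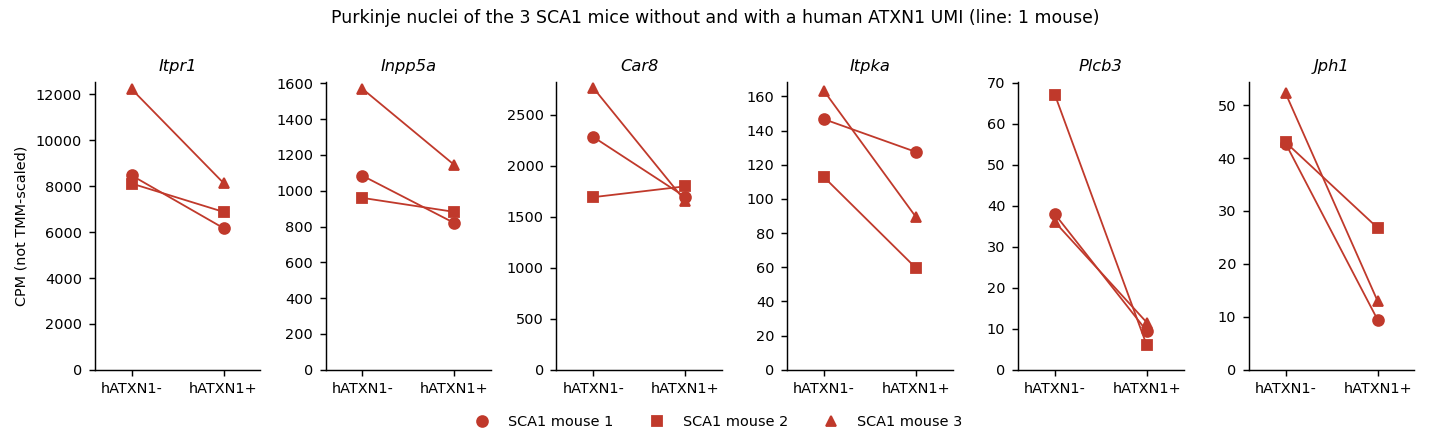
Level (plain CPM) of *Itpr1*, *Inpp5a*, *Car8*, *Itpka*, *Plcb3* and *Jph1* in *hATXN1*- and *hATXN1*+ PCs, with a line joining both values of each SCA1 mouse. The lines of *Itpr1*, *Inpp5a*, *Itpka*, *Plcb3* and *Jph1* go down in all 3 mice, and that of *Car8* goes up in SCA1 mouse 2.

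Of the other genes of the pathway, *Plcb3*, a phospholipase C that makes IP3, and *Jph1*, a junctophilin that ties the endoplasmic reticulum to the plasma membrane, were called in this split, 2 of 64 tested (3.12%) where 1.33% of all genes were. *Plcb3* had 9.45, 5.96 and 11.5 CPM in *hATXN1*+ PCs, from 4, 2 and 8 UMIs, and 38.0, 67.1 and 36.1 CPM in *hATXN1*- PCs, a log2 fold change of -2.33 (edgeR adjusted p = 0.00126). *Jph1* had 9.45, 26.8 and 13.0 CPM against 42.7, 43.0 and 52.2 CPM, a log2 fold change of -1.75 (edgeR adjusted p = 0.00812). The PC marker *Rgs8* was lower in 3 of 3 mice as well, with 224, 229 and 299 CPM against 376, 338 and 499 CPM. The other listed PC markers are not given for this split, so *Rgs8* does not stand for them.

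The members sit in a longer pathway, of which 90 other genes were listed in 5 groups, namely the enzymes and receptors that make IP3, its metabolism, proteins that bind the receptors, the calcium store with its junctions and pumps, and calcium buffers of the cytosol. In PCs 70 of the 90 passed the filter on low counts and none was called. Of these 49 had a negative log2 fold change, with a median of -0.21, and 11 of the 70 had an unadjusted p under 0.05, compared with 6.85% of all genes, all with lower levels in SCA1. In 15 genes, or 21.4%, all SCA1 mice lay below all WT mice, and in 2 genes, or 2.86%, above, where 5.11% and 4.96% of all genes were. The pathway lists were chosen with earlier results of these data known, so these shares are not an independent result. With library size alone the counts of pathway genes were 8 below and 7 above, where 2.6% and 11.6% of all genes were, so the balance of directions depends on the scale. Without 1 mouse they ran from 17 to 23 below and from 2 to 6 above, where 7.06 to 10.6% and 8.01 to 11.3% of all genes were.

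By group, IP3 production had 10 of 11 tested genes with a negative value (median -0.32), the store 14 of 19 (median -0.18), the receptor-binding proteins 12 of 19 (median -0.13), metabolism 9 of 15 (median -0.19) and the buffers 4 of 6 (median -0.27). The lowest log2 fold changes without overlap were those of 2 phospholipases C. *Plce1* had 3.79, 3.42 and 4.10 CPM in SCA1 and 17.1, 6.49 and 20.8 CPM in WT, from 4 to 57 UMIs per mouse (log2 fold change -1.99, SE 0.48, adjusted p = 0.229). *Plcd3* had 19.6, 15.4 and 14.1 CPM against 44.7, 49.3 and 52.0 CPM, well apart in every mouse (-1.54, SE 0.26, adjusted p = 0.0744). Higher in all SCA1 mice were *Camk2d*, a subunit of the calcium and calmodulin dependent kinase II, with 200, 181 and 272 CPM against 159, 179 and 143 CPM (0.44, SE 0.22), and *Tmem38b*, an ion channel of the endoplasmic reticulum, with 14.5, 13.7 and 14.6 CPM against 13.5, 11.7 and 11.4 CPM (0.21, SE 0.31).

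In the other cell types the pathway was closer to the median of all genes and no gene of it was called. Over all pathway genes tested the median was -0.10 in BG (74 genes) and VA (74 genes), -0.06 in OL (69 genes) and -0.07 in granule neurons (87 genes). Of these genes 1 lay above WT in all SCA1 mice in BG (1.93% of all genes did) and 0 below. In VA 1 lay below (2.52%), in OL 1 below and 1 above (1.65% and 1.84%), and in granule neurons 3 below (1.7%). They included *Stim1*, a calcium sensor of the store, higher in BG of SCA1 mice with 86.3, 84.5 and 88.1 CPM against 76.3, 63.8 and 74.8 CPM, and *Plce1*, lower in OL with 19.2, 19.6 and 10.99 CPM against 27.4, 26.2 and 30.3 CPM (log2 fold change -0.74, SE 0.32, adjusted p = 1.0). In granule neurons *Jph3*, the junctophilin of neurons, had 75.7, 48.6 and 64.1 CPM against 81.3, 80.4 and 78.9 CPM (-0.37, SE 0.18), and *Camk2b* a log2 fold change of -0.22. *Jph1* in VA (-0.43) and *Ippk* in OL (0.23) did not overlap either. With library size alone the groups of *Stim1*, *Jph1*, *Jph3* and *Camk2b* overlapped, and those of *Plce1* and *Ippk* did not.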

How the data were processed

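Nuclei of whole cerebella from 3 SCA1 and 3 WT mice were sequenced, and the authors deposited for each mouse a table of whole UMI counts per gene and nucleus and a table with the Seurat cluster and SingleR label of each nucleus. Per the paper's methods, reads were aligned with CellRanger (5.0.1; the submitters' processing notes also list Cell Ranger 4.0.0 and 6.0.1, R 4.1.0 and Seurat 4.0.4) to mm10 with human *ATXN1* added, introns were counted, and debris was removed with DIEM, with a higher minimum for the first run's libraries, which leaves deeper nuclei there. No doublet caller was run here. The libraries were made with a Chromium 3′ kit, and how reads were assigned by strand was not checked here.

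The 9 genes, the pathway lists and the markers were chosen with earlier results of these data known. The 2 mice numbered 1 were taken as batch 1 because their library numbers, given in the labels, lie apart from those of the other mice. Counts were summed per mouse and SingleR label, without requiring the cluster to match as the study did, which was an alternative. edgeR 4.0.16 (R 4.3.3) tested all genes with batch and genotype as terms, TMM factors, a filter on low counts (filterByExpr, minimum count 10, minimum total 15) and Benjamini-Hochberg adjustment, and a gene was called at an adjusted p of at most 0.05. Nuclei of 1 mouse are not replicates, and the edgeR p-values of SCA1 against WT measure the spread between mice. The sign-flip test and the fits with mouse as a term measure the spread of within-mouse differences. Those fits are the interactions, WT PCs against granule neurons, and *hATXN1*+ against *hATXN1*- PCs of the same 3 mice. Levels are TMM-scaled CPM in tested types and plain CPM in untested types and in *hATXN1*+ and *hATXN1*- PCs. Pathway genes were named where called, or as the 2 largest increases or decreases without overlap per cell type. Gene positions are GENCODE's for GRCm38 (mm10), matched by symbol. Alternatives included DESeq2 1.42.0, limma 3.58.1 on sums (prior count 2) and on nuclei normalized with scran 1.30.0, other scaling, no filter, nuclei of at least 3000 UMIs, nuclei with no *Pcp2* UMI, leaving out batch, a replicate block and each mouse left out. The numbers in the labels were checked for pairing by the correlation of same-numbered mice's deviations from the group means, which ran from 0.058 to 0.668 in PCs, 0.054 to 0.748 in BG, 0.090 to 0.737 in OL, 0.146 to 0.715 in VA and 0.251 to 0.856 in granule neurons, and was above 0.1 for every pair in VA and granule neurons. The pair numbered 1 is also batch 1. The counts of members and pathway genes without overlap were recomputed under alternatives chosen after seeing the data. Python 3.11.15 and scipy 1.17.1 were used for levels and permutation tests. The scripts were tested on simulated data. PCs, with as few as 29 nuclei in a mouse, are the least precise of the main types.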

Additional observations from a re-analysis of the deposited data

How the results depend on the processing

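Not every same-numbered pair correlated above 0.1 in PCs, BG and OL, where 5, 4 and 5 of 6 mice correlated best with their own number. With a replicate block instead of batch, edgeR called 184 genes in PCs, with *Car8* (-0.67, adjusted p = 0.0273) and *Itpr1* (-0.61, adjusted p = 0.0246) among them, so 2 members, and 0 members elsewhere (3 genes in BG, 1 in VA, 1 in OL, 13 in granule neurons and 1 in the 6 other types). Single nuclei as replicates, which treats nuclei of 1 mouse as independent, called 1 member of 417 genes in PCs (*Car8*), 2 of 370 in BG (*Car8* and *Itpr1*), and 3 of 150 in VA and 3 of 187 in OL (these and *Inpp5a*). DESeq2 called 1 member of 36 genes in granule neurons. Between *hATXN1*+ and *hATXN1*- PCs, 3 members of 215 genes were called with no filter on low counts and 2 of 114 with DESeq2. With a mouse left out 0 to 2 members were called, 2 of 116 genes without SCA1 mouse 2 and 0 of 101 without SCA1 mouse 3. Of the members, 1 lay below WT in all SCA1 mice with library size only (2.6% of all genes) and 2 to 5 with a mouse left out (7.06 to 10.6%). Of the pathway genes, 8 lay below and 7 above with library size only (11.6% of all genes above), and 17 to 23 below and 2 to 6 above with a mouse left out (8.01 to 11.3% above).

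For single genes, 796 alternative values were computed, of which 728 kept their direction and their side of the threshold, 17 passed it, 2 lost it and 49 changed sign, and the cause was not tested. In PCs the sign of *Ryr1* changed with library size (0.0058) and that of *Ryr2* with single nuclei (0.10), and with a mouse left out *Ryr2* ran from -0.57 to 0.036. In VA, *Itpr2* became -0.17 and *Ryr2* 0.0086 in nuclei with no *Pcp2* UMI, *Ryr2* 0.10 with single nuclei, and *Itpka* 0.11 with DESeq2 and 0.052 in nuclei of at least 3000 UMIs. In OL, *Inpp5a* became 0.030 in nuclei with no *Pcp2* UMI, and *Ryr2* -0.10 there, -0.14 at 3000 UMIs, -0.033 where label and cluster were the same, -0.011 with DESeq2 and -0.011 with no batch term. In granule neurons *Itpr3* became -0.012 with RLE factors, -0.011 with DESeq2 and -0.063 at 3000 UMIs. *Itpr2* in WT PCs against granule neurons became -0.33 with library size and -0.012 with no filter. With a mouse left out, values that crossed 0 ran from -1.21 to 0.37 for *Itpka* in BG; in VA from -0.20 to 0.32 for *Itpr2*, -0.66 to 0.11 for *Inpp5a*, -0.16 to 0.11 for *Ryr2* and -0.61 to 0.73 for *Itpka*; from -0.12 to 0.20 for *Ryr2* in OL; in granule neurons from -0.091 to 0.15 for *Itpr3* and -0.36 to 0.076 for *Ryr2*; in PCs against granule neurons from -0.48 to 0.49 for *Itpr1*, -0.71 to 0.64 for *Car8*, -0.41 to 0.85 for *Ryr1* and -0.58 to 0.59 for *Itpka*; and from -0.47 to 0.85 for *Itpr2* in WT.

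In the fits with batch and genotype as terms, leaving out SCA1 mouse 1 or WT mouse 1 also took the other one out of the fold change, which was not so in the comparisons of PCs with granule neurons or in the counts without overlap. The cell type with the highest level was the same for 6 of 9 members where label and cluster had to be the same, and could not be compared for *Itpr2*, *Ryr2* and *Ryr3*. That alternative was not run in Pvalb-Rab3b and Pvalb-Chrm2 interneurons, Slc17a6-Nrgn neurons and Dcn-Nnat cells.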
